A study of Homo sapiens with 31 samples.

Results

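The 39 human HOX genes lie in 4 clusters, HOXA on chromosome 7, HOXB on chromosome 17, HOXC on chromosome 12 and HOXD on chromosome 2. This account covers the peaks of the transcription factor EVI1 and of its corepressor CTBP2 within the 4 clusters, each taken from the first to the last HOX gene plus 50 kb on either side (build hg19, GENCODE annotation). The intervals were chr7:27082612-27289710 for HOXA, chr17:46555888-46856112 for HOXB, chr12:54282615-54499814 for HOXC and chr2:176907449-177105635 for HOXD. Of the 39 genes, 38 are reported by name, 10 in HOXA, 10 in HOXB, 9 in HOXC and 9 in HOXD, of 20163 protein-coding genes with a start site in the annotation. The 13 peak lists held 3 to 84 peaks in the clusters, of 6688 to 72214 peaks per list.

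HOX genes encode homeodomain transcription factors that give cells their position along the body axis, and they are arranged in the chromosome in the order in which they are used, so that low numbers mark the anterior and high numbers the posterior end. In blood formation, genes of the HOXA and HOXB clusters are active in stem and progenitor cells and are switched off on differentiation, and high expression of HOXA9 with its cofactor MEIS1 is a known feature of several acute myeloid leukemias (AML). EVI1, a zinc finger protein encoded by MECOM, is overexpressed in AML with rearrangements of chromosome 3q26, and it recruits the corepressor CTBP2 through a short PLDLS motif. ChIP-seq recovers the DNA bound by a protein after crosslinking, and a peak is a stretch with more reads than the input control.

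All libraries came from cell lines. MUTZ3 is an AML line with a MECOM rearrangement, and its unmodified cells gave 1 EVI1 library (crosslinked with DSG and formaldehyde) and 1 CTBP2 library (single crosslink). The MOLM1 line gave 1 CTBP2 library, from untreated cells of a line with a doxycycline-inducible shRNA against EVI1, which is labelled as chronic myeloid leukemia in blast crisis. MUTZ3 cells with a retroviral 4x PLASS construct, a mutated peptide that serves as control, gave 2 CTBP2 libraries. For the MOLM1 and 4x PLASS libraries the labels give DSG, while the labels of their inputs give a single crosslink. MUTZ3 cells with a lentiviral, doxycycline-inducible 4x PLDLS construct, a peptide of 4 repeats that competes with EVI1 for CTBP2, were kept for 72 h with doxycycline (dox) or without it, and each condition gave 2 CTBP2 and 2 EVI1 libraries, all with DSG. Both targets share 1 dox input and 1 untreated input. The untreated cells of this experiment carry the construct too. Nothing in the labels says that the 2 libraries of a group came from separate cultures, so their spread may be technical. No read numbers come with the lists and depth is not known, while list sizes differed within groups as well as between them. The 4x PLASS lists held 6688 and 31310 peaks, the untreated CTBP2 lists 62232 and 56526, and the dox CTBP2 lists 24588 and 23878. Peaks are therefore given by rank within their own list, by MACS2 fold enrichment over input, where rank 1 is the strongest.

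The reference sequence at the sites on which the following results turn is given first, 100 bp either side of the summit, on the plus strand of build hg19, with matches on either strand to any of the 7 motifs searched in capitals (2 motifs read by EVI1, an E-box, a GC box, a RUNX, an ETS and a CTCF core). The HOXC10 site held none. The first is the strongest peak of the 4 clusters in every list. Next are the strongest HOXA site of CTBP2 in untreated inducible cells, the HOXA13 start and a site where EVI1 ranked higher with dox. Last come the strongest HOXC site of CTBP2 in untreated inducible cells, the most often called HOXD site and the strongest HOXD peak of MOLM1.
Distal HOXB site, chr17:46560962-46561162: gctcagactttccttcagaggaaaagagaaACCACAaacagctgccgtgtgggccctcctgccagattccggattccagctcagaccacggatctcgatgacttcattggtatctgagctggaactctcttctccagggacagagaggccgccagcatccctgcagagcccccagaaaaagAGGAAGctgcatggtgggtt
HOXA9-HOXA10 site, chr7:27208775-27208975: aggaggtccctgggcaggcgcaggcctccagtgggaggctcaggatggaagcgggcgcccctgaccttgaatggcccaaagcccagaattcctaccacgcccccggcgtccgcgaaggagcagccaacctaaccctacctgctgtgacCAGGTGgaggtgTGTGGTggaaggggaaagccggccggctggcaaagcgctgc
HOXA13 start, chr7:27239919-27240119: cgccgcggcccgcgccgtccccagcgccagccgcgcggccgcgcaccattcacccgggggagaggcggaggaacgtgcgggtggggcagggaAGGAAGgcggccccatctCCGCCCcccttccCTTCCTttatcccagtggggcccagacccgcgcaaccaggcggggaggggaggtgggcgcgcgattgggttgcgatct
HOXA5 site, chr7:27176945-27177145: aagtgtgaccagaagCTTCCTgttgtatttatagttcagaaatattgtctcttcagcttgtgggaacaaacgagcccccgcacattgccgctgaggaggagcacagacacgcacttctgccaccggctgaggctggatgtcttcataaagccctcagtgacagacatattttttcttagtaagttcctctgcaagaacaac
HOXC10 site, chr12:54377429-54377629: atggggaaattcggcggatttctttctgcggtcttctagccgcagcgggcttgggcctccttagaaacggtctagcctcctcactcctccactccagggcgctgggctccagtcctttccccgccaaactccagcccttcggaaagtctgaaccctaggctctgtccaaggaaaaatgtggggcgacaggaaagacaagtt
HOXD site, chr2:177005393-177005593: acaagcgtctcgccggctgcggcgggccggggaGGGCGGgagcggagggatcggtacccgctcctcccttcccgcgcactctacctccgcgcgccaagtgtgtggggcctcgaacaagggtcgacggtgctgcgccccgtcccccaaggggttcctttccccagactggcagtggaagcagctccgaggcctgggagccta
MOLM1 HOXD site, chr2:177047504-177047704: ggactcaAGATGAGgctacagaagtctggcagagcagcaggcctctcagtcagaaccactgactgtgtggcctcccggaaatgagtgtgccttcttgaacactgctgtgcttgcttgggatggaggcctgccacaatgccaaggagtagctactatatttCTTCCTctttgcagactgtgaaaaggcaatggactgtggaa

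HOXA held the most peaks for its length in 11 of 13 lists, and HOXD the fewest in 12 of 13. Peaks in HOXA were 2.24 to 10.5 times as dense as over the whole genome (median 5.87 over 13 lists), in HOXB 1.54 to 6.22 times (median 4.52), in HOXC 1.33 to 4.18 times (median 2.54) and in HOXD 0 to 1.94 times (median 0.999). HOXA, HOXB and HOXC were denser than the genome in 13 of 13 lists, and HOXD in 6 of 13. HOXD had the lowest density in 12 of 13 lists, the exception being MOLM1, where its 8 peaks gave 4.04 peaks per 100 kb against 2.76 in HOXC and 3.66 in HOXB. HOXC was below both HOXA and HOXB in 12 of 13 lists, the exception being 4x PLASS replicate 1 with 1 peak in each of the 3 clusters. Without that list, HOXC was below both in 12 of 12. HOXA was at least as dense as HOXB in 11 of 13 lists, and without the 50 kb flanks it was the densest of the 4 in 12 of 13. These are neighbouring peaks of single loci, and no test was made of the order.

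**Figure D1:**
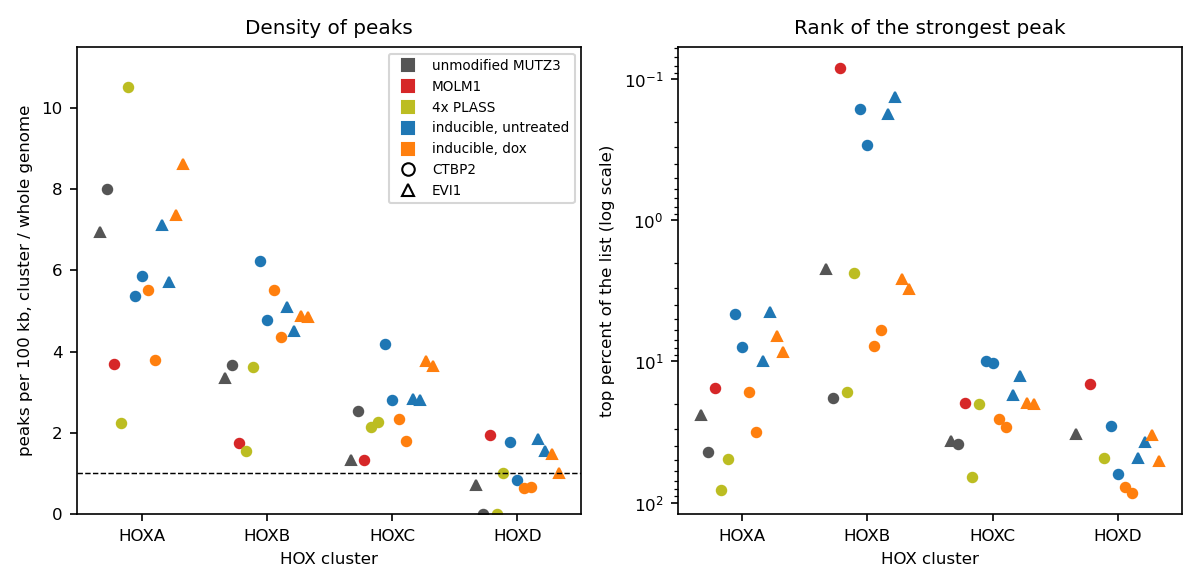
Left, peaks per 100 kb in each HOX cluster divided by peaks per 100 kb over the genome, 1 point per list (circles CTBP2, triangles EVI1); the dashed line marks equal density, and HOXD points lie between 0 and 1.94. Right, rank of the strongest peak of each cluster as top percent of its list (log axis, stronger peaks higher); HOXB holds the strongest peak in 13 of 13 lists, and no point is drawn for the 2 lists without a HOXD peak.

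In unmodified MUTZ3 the EVI1 list held 10 peaks in HOXA, 7 in HOXB, 2 in HOXC and 1 in HOXD, and the CTBP2 list held 9, 6, 3 and 0. In the untreated inducible cells the numbers of CTBP2 peaks were 22 and 22 in HOXA, 37 and 26 in HOXB, 18 and 11 in HOXC and 7 and 3 in HOXD. The EVI1 libraries of the same cells had 24 and 27, 25 and 31, 10 and 14, and 6 and 7. The 4x PLASS libraries had 1 and 22 CTBP2 peaks in HOXA, 1 and 11 in HOXB, 1 and 5 in HOXC, and 0 and 2 in HOXD. In the untreated inducible cells the EVI1 counts lay within or next to the range of the CTBP2 counts in HOXB, HOXC and HOXD and above it in HOXA. Over all 13 lists the peaks merged into 128 regions, 36 in HOXA, 51 in HOXB, 27 in HOXC and 14 in HOXD, of which 56 were called in 1 list only and 65 held peaks of both targets. Each of 2 regions, 1 in HOXB and 1 in HOXA, was called in all 13 lists. Merged regions were not counted over the genome, so these numbers have no share to be set against.

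**Figure D2:**
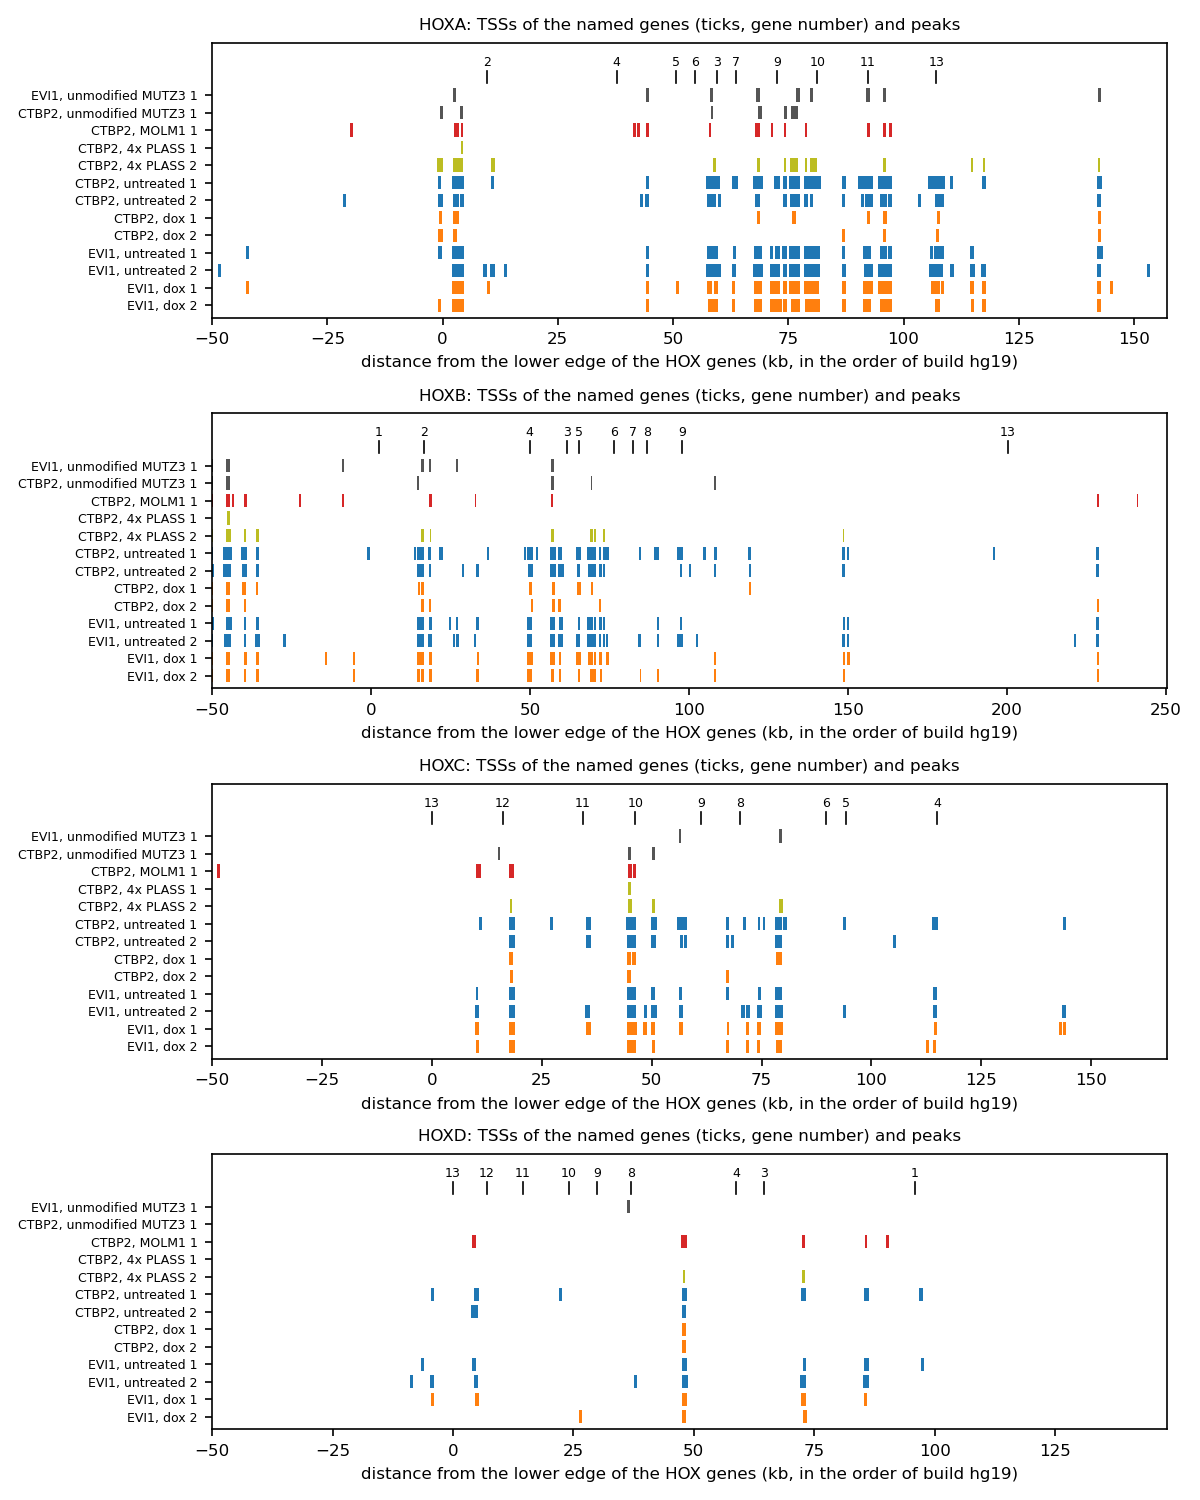
Peaks of the 13 lists (rows) along each HOX cluster, in kb from the lower edge of the HOX genes, with 50 kb of flank; ticks mark the start sites of the 38 named genes by gene number, and colors mark the groups (grey unmodified MUTZ3, red MOLM1, olive 4x PLASS, blue untreated, orange dox). Peaks gather between HOXA7 and HOXA13, around HOXB2, HOXB4 and HOXB5 and around HOXC10, while the HOXD rows hold 0 to 8 peaks.

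The strongest peak of the 4 clusters lay outside the HOX genes themselves. It was an intergenic site at chr17:46560298-46561776, 44.8 kb beyond the 3′ end of HOXB1 and 53.4 kb from SKAP1, and it was called in 13 of 13 lists. Its CTBP2 peak ranked 54 of 64569 in MOLM1 (45.1-fold over input), 102 and 166 in the untreated inducible lists (44.0-fold and 33.1-fold), 3050 in unmodified MUTZ3 (7.62-fold), and 1098 and 734 in the 4x PLASS lists (7.08-fold and 16.3-fold). Its EVI1 peak ranked 475 in unmodified MUTZ3 (20.3-fold) and 91 and 97 in the untreated inducible lists (49.4-fold and 69.8-fold). With dox, CTBP2 ranked 1909 and 1420 (8.83-fold and 11.1-fold) and EVI1 1398 and 1450 (24.5-fold and 21.3-fold), so the dox and untreated libraries did not overlap for either target. Over the genome, 102 CTBP2 sites ranked 200 or higher in both untreated lists, and their median rank with dox was 135 and 192.5. Of these 102 sites, 6 ranked lower than the distal HOXB site in dox replicate 1 and 16 in dox replicate 2. For EVI1, 133 sites ranked 200 or higher in both untreated lists, with median dox ranks of 198 and 229, and 7 and 13 of them ranked lower than the HOXB site. This comparison was chosen after the values of the site were seen. The sequence at its summit held 1 TGTGGT match (RUNX) and 1 AGGAAG match (ETS), and no AGATAA or AGATGAG. A neighbour at chr17:46565254-46566763, 39.6 kb beyond HOXB1, was the next strongest CTBP2 site of HOXB by fold enrichment in untreated replicate 1. It ranked 3178 and 5175 untreated (top 5.11% and 9.16%) and 4473 in MOLM1. In the shorter dox lists it ranked 12631 and 2834 (top 51.4% and 11.9%). The third, chr17:46569740-46570551, lay 35.9 kb beyond HOXB1. It ranked 5212 and 10096 untreated and 9685 in dox replicate 1, with no peak in dox replicate 2.

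Within HOXA, 2 of the 3 strongest CTBP2 sites of the untreated inducible cells, by fold enrichment in replicate 1, lay on either side of HOXA9. HOXA9 and HOXA10 are posterior HOX genes of hematopoietic progenitors, and the gene of the microRNA miR-196b lies between them. The strongest CTBP2 site, chr7:27207962-27210013, has its summit in an intron of a longer HOXA9 transcript and covers MIR196B (chr7:27209099-27209183, minus strand). Its CTBP2 peak ranked 2864 and 4433 in the untreated lists (18.5-fold and 12.7-fold) and 6375 in dox replicate 1 (6.07-fold), and dox replicate 2 had none. EVI1 ranked 6311 and 3432 there untreated and 12220 and 15475 with dox. The site was called in unmodified MUTZ3 for both targets and not in MOLM1. The mature miR-196b-5p, as RefSeq gives it, is shown with its seed (bases 2 to 8) in capitals beside miR-196a-5p, which is encoded in HOXB and HOXC and shares the seed.
miR-196b-5p: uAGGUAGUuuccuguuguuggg
miR-196a-5p: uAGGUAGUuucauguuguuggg

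The HOXA site on the other side of HOXA9 was chr7:27200196-27201947, intergenic, 0.858 kb from the 3′ end of HOXA9. CTBP2 ranked 4751 and 4770 there untreated and 9662 in dox replicate 1, with no peak in dox replicate 2, and 10749 in MOLM1. EVI1 ranked 5068 and 3236 untreated and 7274 and 12472 with dox. The strongest HOXA site that lost CTBP2 in both dox libraries was chr7:27206689-27207097, 1763 bp upstream of the HOXA9 start, with ranks of 7709 and 6371 untreated. EVI1 peaks remained there, at 25698 and 18176 untreated and 19374 and 24036 with dox.

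HOXA13, the most posterior gene of its cluster, which patterns limbs and the hindgut, had a broad site over its start (chr7:27238152-27241407, 3256 bp). It was called in 8 of 8 lists of the inducible experiment and in none of the other 5. CTBP2 ranked 2946 and 6537 untreated and 12746 and 21543 with dox, and EVI1 10734 and 6012 untreated and 26546 and 29863 with dox. All 4 dox ranks were lower than the untreated ranks of the same target. The share of all sites whose ranks fell in this way was not counted. The printed stretch held 25 CpG dinucleotides, with 1 GGGCGG match (GC box) and 2 AGGAAG matches.

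EVI1 ranked higher with dox at a site in an intron of a long HOXA3 transcript, chr7:27176845-27177183, 6255 bp downstream of the HOXA5 start. Its EVI1 rank was 9282 and 24143 untreated (10.4-fold and 7.37-fold) and 3535 and 4112 with dox (16.9-fold and 13.8-fold). CTBP2 was called at this site in both untreated lists, at ranks 32222 and 22892, and in neither dox list. With dox it was the strongest EVI1 peak of HOXA in both libraries. The share of all EVI1 sites that ranked higher in both dox lists was not counted.

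In HOXC the strongest CTBP2 site of the untreated inducible cells was chr12:54377045-54378888. Its summit lies in an exon of the antisense RNA HOXC-AS3, 1401 bp upstream of the start of HOXC10, a posterior HOX gene. It was called in 12 of 13 lists, the exception being EVI1 in unmodified MUTZ3. CTBP2 ranked 6189 and 5798 untreated and 6309 and 6965 with dox, in lists of which the dox ones were the shorter, so that it moved from the top 9.95% and 10.3% to the top 25.7% and 29.2%. In MOLM1 and 4x PLASS replicate 2 the strongest HOXC peak lay instead at chr12:54350344-54351287, 1923 bp downstream of the HOXC12 start. It ranked 12646 and 6272 there, against 22396 and 10387 for the HOXC10 site. In the inducible cells this HOXC12 site was in the top 22.5% and 23.5% untreated and the top 84.5% and 92.5% with dox for CTBP2. A site in the coding exon of HOXC10, chr12:54382711-54383522, was the strongest HOXC site without a CTBP2 peak in either dox list (ranks 15676 and 10424 untreated). EVI1 peaks remained there in both dox lists, at 21634 and 22364, after 8845 and 16481 untreated.

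HOXD held 2 CTBP2 sites called in both untreated libraries. One, chr2:177005102-177005887, lies in an intron of a long HOXD3 transcript between HOXD8 and HOXD4, genes of the middle and anterior part of the cluster. It was the most often called HOXD site, in 10 of 13 lists. CTBP2 ranked low there, at 20064 and 35453 untreated and 19198 and 20394 in the shorter dox lists. Its CTBP2 peak thus moved from the top 32.2% and 62.7% to the top 78.1% and 85.4%. The other, chr2:176962016-176962663, 2150 bp upstream of HOXD12, ranked 17724 and 40605 untreated and was called in neither dox library.

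**Figure D3:**
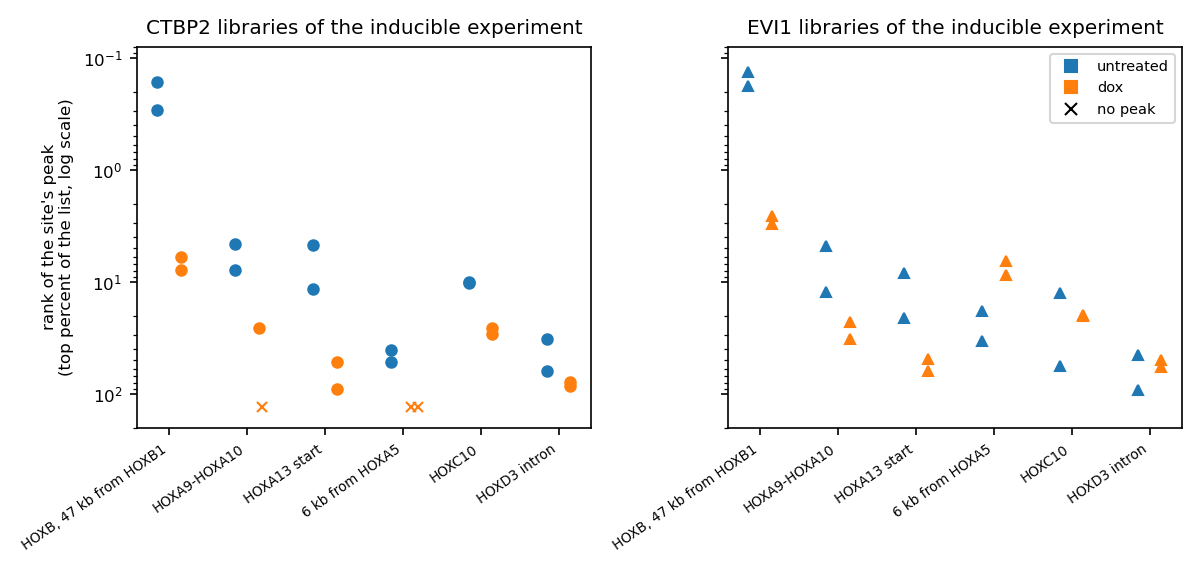
Rank of 6 named sites in the inducible lists, as top percent of the list (log axis, stronger peaks higher), 1 point per library, blue untreated and orange dox; crosses mark libraries without a peak. The distal HOXB site lies at 0.134% to 0.294% untreated and 2.60% to 7.76% with dox, and the HOXA5 site is the one of the 6 at which both EVI1 dox points lie above both untreated points.

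The share of HOX genes with a peak at the start was below that of protein-coding genes as a whole in 13 of 13 lists. A start was counted when a peak lay within 1 kb of the start of the canonical transcript. For HOXA3 and HOXB3 that start lies upstream of neighbouring HOX genes. In both untreated libraries CTBP2 was called at 9 of 38 HOX genes (23.7%), against 54.8% of all protein-coding genes, and EVI1 at 12 of 38 (31.6%), against 58.1%. In unmodified MUTZ3, EVI1 was called at 3 HOX genes (7.89%, against 26.4%) and CTBP2 at 1 (2.63%, against 18.5%). MOLM1 had a CTBP2 peak at 2 of 38 starts (5.26%, against 47.5%), at HOXA11 and HOXC10. The 4x PLASS lists had 0 and 4 (10.5%), against 7.37% and 34.9%. CTBP2 was called at 16 and 9 starts in the untreated libraries (against 63.9% and 55.7%) and at 6 and 3 with dox (against 36.6% and 29%). EVI1 was called at 12 and 17 starts untreated (against 58.9% and 64.7%) and at 13 and 11 with dox (against 60.5% and 57.2%). Without untreated replicate 2 the CTBP2 count is thus 16 in place of 9. HOX genes are neighbours and share peaks, so these counts are a description.

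By cluster, starts with CTBP2 in both untreated libraries were 3 of 10 in HOXA, 4 of 10 in HOXB, 2 of 9 in HOXC and 0 of 9 in HOXD. For EVI1 they were 6 of 10, 4 of 10, 2 of 9 and 0 of 9. By position, CTBP2 was called at 3 of 11 genes numbered 1 to 4, at 1 of 11 numbered 5 to 8 and at 5 of 16 numbered 9 to 13, and EVI1 at 4, 2 and 6. The counts were spread over anterior and posterior genes and rested on few genes. HOXB2, which patterns the hindbrain, was called in 10 of 13 lists, HOXA11 in 9, and HOXA13, HOXB4 and HOXC10 in 8. HOXB4 is known to promote expansion of hematopoietic stem cells. No HOX start was called in all 13 lists, against 4.12% of protein-coding genes, and 5 of 38 were called in 8 or more, against 43.4%. No list had a peak at 19 of the 38 starts (50%), against 30.3% of all genes. These were HOXA4 and HOXA6, then HOXB1, HOXB3, HOXB6, HOXB7, HOXB8 and HOXB13, then HOXC6, HOXC9 and HOXC13, and all HOXD genes but HOXD8. HOXD8 had an EVI1 peak in unmodified MUTZ3 (rank 7054 of 21505) and in untreated replicate 2 (rank 45344 of 72214).

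**Figure D4:**
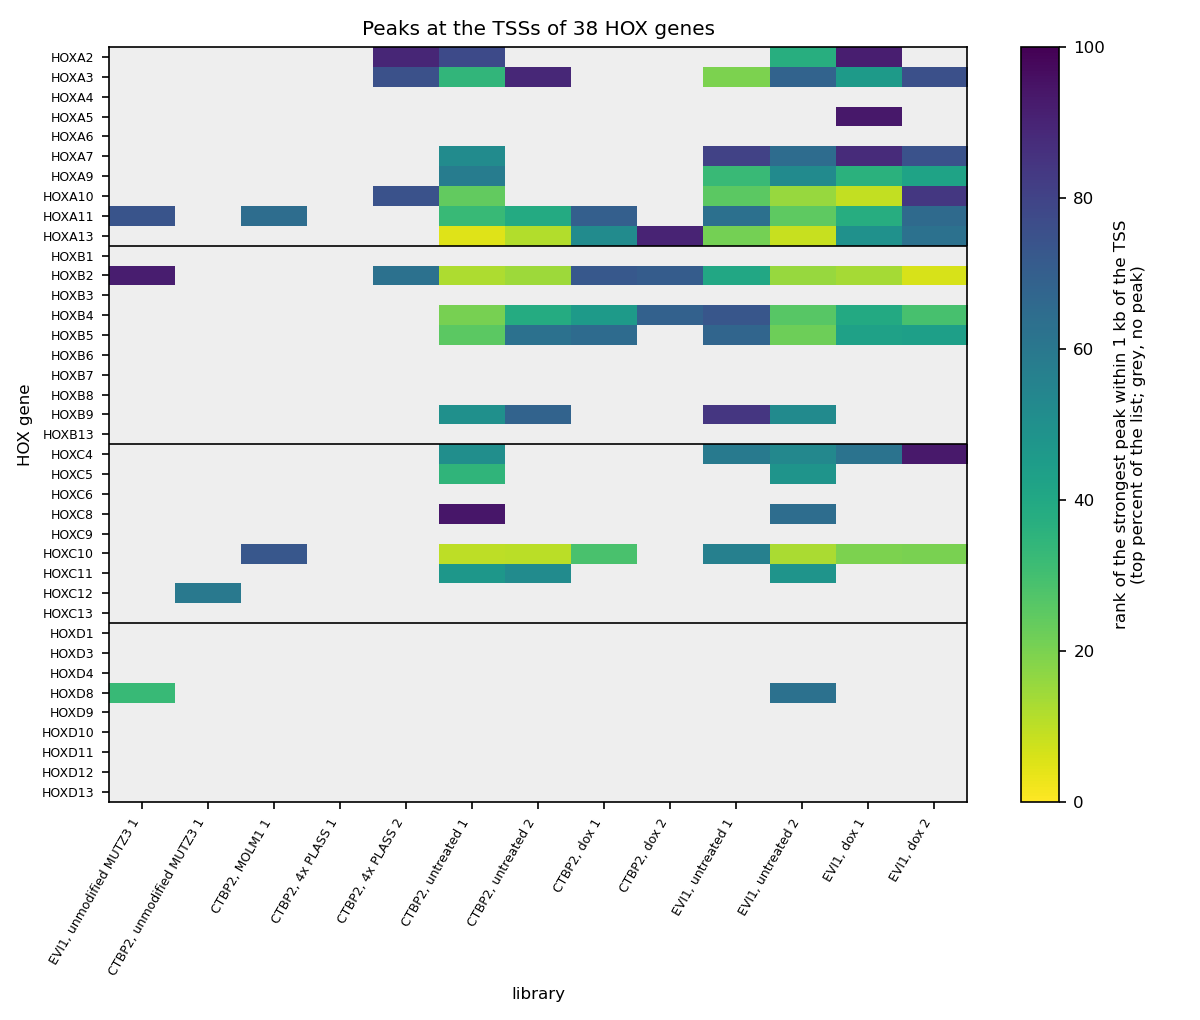
Strongest peak within 1 kb of the start of each of 38 HOX genes (rows) in the 13 lists (columns), colored by top percent of the list, yellow strongest and grey where there is no peak. The HOXD block is grey but for HOXD8 in 2 lists, and 19 rows are grey throughout.

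The CTBP2 peak at the HOXB2 start ranked 7757 and 8183 untreated and 17841 and 16902 with dox (12.7-fold and 9.93-fold, then 4.01-fold and 4.48-fold). Its EVI1 peak ranked 20577 and 11223 untreated and 7148 and 2964 with dox (6.88-fold and 12.2-fold, then 12.2-fold and 15.9-fold). CTBP2 was thus below and EVI1 above its untreated ranks in both dox libraries. How often starts over the genome moved in this way was not counted. HOXB4 kept CTBP2 peaks in both dox libraries, at 11208 and 16437 of the shorter dox lists after 12648 and 21726, and so did HOXA13. HOXB5, HOXA11 and HOXC10 kept one in dox replicate 1 only. HOXA3, HOXB9 and HOXC11 had CTBP2 in both untreated and in neither dox library. EVI1 was called at 11 of 38 starts in both dox libraries (28.9%, against 56.3%) and CTBP2 at 3 (7.89%, against 25.2%).

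The genes that work with the HOX clusters were counted in the same way. Among HOX cofactors, which bind DNA together with HOX proteins (PBX2, PBX3, PBX4, MEIS1, MEIS2, MEIS3, PKNOX1 and PKNOX2), CTBP2 was called in both untreated libraries at 5 of 8 starts (against 54.8% of all protein-coding genes) and in both dox libraries at 2 (against 25.2%), and EVI1 at 7 (against 58.1%) and 5 (against 56.3%). MEIS2 was called in all 13 lists, PBX3 in 12, and MEIS1, the partner of HOXA9 in leukemia, in 10. The regulators of the clusters were 13 genes, of the KMT2A (MLL) and Polycomb complexes and the CDX family, with DOT1L. CTBP2 was called at 9 of them untreated and 1 with dox (against the same 54.8% and 25.2%). For EVI1 the numbers were 10 and 9 (against 58.1% and 56.3%). No test was made of these short lists. KMT2A, the methyltransferase that keeps HOX genes on, was called in all 13 lists and was the 1 gene with CTBP2 in both dox libraries. CDX1, CDX2 and CDX4, homeobox activators of HOX genes, were called in none, nor was EVX1, and EVX2 was called in 1. Of 15 non-coding genes of the clusters found in the annotation, CTBP2 was called at 7 untreated and 2 with dox, and EVI1 at 6 and 5. The share over all non-coding genes was not counted, so these numbers are a description. HOTAIRM1 was called in 12 lists, HOXB-AS1 in 11, MIR196B in 10 and HOTAIR, of the HOXC cluster, in 4.

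Peak numbers were compared between dox and untreated cells, which both carry the 4x PLDLS construct. No MUTZ3 library with dox and without this construct is among the samples, so dox and the peptide cannot be told apart. The HOX clusters held 84 and 62 CTBP2 peaks untreated and 27 and 20 with dox, or 73.0 ± 15.6 against 23.5 ± 4.95 (SD, n = 2), a log2 ratio of −1.64. The groups did not overlap, and the exact two-sided permutation p was 0.333, the smallest that 2 against 2 libraries allow. The whole CTBP2 lists had a log2 ratio of −1.29. Per 10000 peaks of the list the numbers were 13.5 and 11.0 untreated and 11.0 and 8.38 with dox, a log2 ratio of −0.34 (exact permutation p = 0.667). Cut to the size of the smallest list, the log2 ratio was −0.28. By cluster the log2 ratio of CTBP2 peaks was −1.55 in HOXA (22 and 22, then 9 and 6), −1.45 in HOXB (37 and 26, then 13 and 10), −2.05 in HOXC (18 and 11, then 4 and 3) and −2.32 in HOXD (7 and 3, then 1 and 1). Dox and untreated counts did not overlap in any of the 4. Per 10000 peaks of the list the log2 ratios were −0.27 in HOXA, −0.15 in HOXB, −0.75 in HOXC and −1.004 in HOXD. On that scale the groups overlapped in HOXA (3.54 and 3.89 untreated, 3.66 and 2.51 with dox) and in HOXB (5.95 and 4.60, then 5.29 and 4.19), and not in HOXC (2.89 and 1.95, then 1.63 and 1.26) or HOXD (1.12 and 0.531, then 0.407 and 0.419). EVI1 had 65 and 79 peaks untreated and 70 and 64 with dox, a log2 ratio of −0.10 (exact permutation p = 0.667), and its direction turned when numbers were taken per 10000 peaks (0.17). The EVI1 counts of the groups overlapped or touched in HOXA, HOXB and HOXC, and in HOXD they were 6 and 7 against 5 and 3.

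The fate of single sites was read from those called in both untreated libraries. In the clusters 45 CTBP2 sites met this, 15 in HOXA, 21 in HOXB, 7 in HOXC and 2 in HOXD. With dox 23 and 20 of them had a CTBP2 peak, 47.8% ± 4.71 (SD, n = 2), against 48.7% ± 3.03 of all 37227 sites. In both dox libraries 14 of 45 were kept (31.1%, exact 95% binomial interval 18.2% to 46.6%), against 38.4%, and 16 of 45 had a peak in neither (35.6%), against 41%. The intervals cover counting error only. With untreated replicate 1 alone as reference, without replicate 2, the mean share kept was 26.2%. By cluster the mean share kept was 46.7% in HOXA, 50.0% in HOXB, 42.9% in HOXC and 50.0% in HOXD, so the clusters differed by less than the 2 dox libraries did within HOXA (53.3% and 40.0%). Over the genome the share kept depended on strength, at 87.6% in the 20% of sites with the highest fold enrichment and 23.9% in the lowest 20%. Of the 45 HOX sites 8 fell in the highest class, of which 8 and 5 were kept, and 8 in the lowest, of which 2 and 3 were kept.

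For EVI1, 50 sites were called in both untreated libraries, and 45 and 43 of them had an EVI1 peak with dox, 88.0% ± 2.83 (SD, n = 2), against 84.5% ± 5.20 of all 40449 sites. In both dox libraries 42 of 50 were kept (84.0%, interval 70.9% to 92.8%), against 78.1%, and 4 of 50 had a peak in neither, against 9.01%. By cluster 18 and 18 of 19 HOXA sites, 16 and 16 of 20 HOXB sites, 8 and 7 of 8 HOXC sites and 3 and 2 of 3 HOXD sites were kept. In each cluster the EVI1 share was above the CTBP2 share. Of the 16 HOX sites with no CTBP2 peak with dox, 12 were EVI1 sites in untreated cells, and 9 of these had an EVI1 peak in both dox libraries (75.0%, against 70.5% of 10499 such sites over the genome). All 6 of 6 in HOXA did, 2 of 4 in HOXB and 1 of 2 in HOXC. No HOX site was called for CTBP2 in both dox libraries and no untreated library, against 0.96% of all CTBP2 dox sites. For EVI1 2 of 50 dox sites were such gains, against 4.22% of all. Both lay in HOXB, an intergenic site 5.29 kb beyond HOXB1 at chr17:46600443-46600719 and a site in the non-coding gene LINC03057 at chr17:46713831-46714138. The latter had CTBP2 peaks in both untreated libraries.

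How often EVI1 and CTBP2 met in the clusters depended on the lists compared. In unmodified MUTZ3, 5 of 20 EVI1 peaks of the HOX clusters overlapped a CTBP2 peak (25.0%, exact 95% interval 8.66% to 49.1%), against 43% of all EVI1 peaks. They were 2 of 10 in HOXA, 3 of 7 in HOXB, 0 of 2 in HOXC and 0 of 1 in HOXD. Against the CTBP2 sites of both untreated inducible libraries the same 20 peaks gave 17 (85.0%). In the untreated inducible cells 38 of 50 EVI1 sites held a CTBP2 site (76.0%, interval 61.8% to 86.9%), against 75.9%, and 38 of 45 CTBP2 sites an EVI1 site (84.4%), against 82.5%. The HOX peaks of unmodified MUTZ3 were found again in the inducible cells, 17 of 18 for CTBP2 (94.4%, against 78.5%) and 18 of 20 for EVI1 (90.0%, against 82.3%). Of the unmodified CTBP2 peaks 5 of 18 overlapped an unmodified EVI1 peak (27.8%, against 54.5%). All 3 HOX peaks of 4x PLASS replicate 1 were called in replicate 2 (against 88.7%), and 35 of 40 of replicate 2 lay in an untreated inducible CTBP2 site (87.5%, against 75.8%). Between the untreated replicates themselves, 47 of 84 CTBP2 peaks of replicate 1 were called in replicate 2 (56.0%, against 60.9%) and 53 of 62 the other way (85.5%, against 73.1%). For EVI1 these were 57 of 65 (87.7%, against 83.9%) and 52 of 79 (65.8%, against 57.1%). The unmodified CTBP2 library had a single crosslink and the inducible ones a double, and crosslink and experiment cannot be told apart here.

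The MOLM1 list held 41 CTBP2 peaks in the clusters, 16 in HOXA, 11 in HOXB, 6 in HOXC and 8 in HOXD, or 6.35 per 10000 peaks of the list, below the 13.5 and 11.0 of the untreated MUTZ3 lists. Of the 41 peaks 24 overlapped a CTBP2 site of both untreated MUTZ3 libraries (58.5%, exact 95% interval 42.1% to 73.7%), against 46.2% of the list. They were 12 of 16 in HOXA, 6 of 11 in HOXB, 3 of 6 in HOXC and 3 of 8 in HOXD. In the other direction 18 of the 45 MUTZ3 sites had a MOLM1 peak (40.0%, interval 25.7% to 55.7%), against 61.9% of all MUTZ3 sites. They were 9 of 15 in HOXA (interval 32.3% to 83.7%), 6 of 21 in HOXB (28.6%, interval 11.3% to 52.2%), 2 of 7 in HOXC and 1 of 2 in HOXD. The intervals of HOXA and HOXB overlap, but they cover counting error only. Neighbouring sites of 1 cluster are not replicates, and no test was made between clusters. The unmodified MUTZ3 CTBP2 peaks gave 7 of 18 (38.9%), against 70.2%, and 7 of the 41 MOLM1 peaks overlapped one of them (17.1%, against 18.7%). The starts of HOXA13, HOXB4, HOXB5 and HOXB9 were called in all 4 untreated lists of the inducible MUTZ3 cells. None of them had a peak in MOLM1, in unmodified MUTZ3 or in the 4x PLASS lists. The share of all genes called in this way was not counted. With EVI1 sites of untreated inducible MUTZ3, 27 of the 41 MOLM1 peaks overlapped (65.9%, against 47.1%), 13 of 16 in HOXA and 6 of 11 in HOXB. MOLM1 has 1 library, so cell line, construct and preparation cannot be told apart.

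Of the 41 MOLM1 peaks 12 overlapped no CTBP2 peak of any MUTZ3 list (29.3%, against 36% of the whole list), 4 in HOXA, 5 in HOXB, 2 in HOXC and 1 in HOXD. The highest ranking of these was the HOXD peak at chr2:177047474-177047788, in an intron of the antisense RNA HAGLR, 5792 bp upstream of HOXD1, at rank 9318 (12.7-fold). It was called in no other list, and it was the strongest HOXD peak of all 13 lists by percentile (top 14.4%). Its sequence held 1 AGATGAG match, 93 bp before the summit, and 1 AGGAAG match, and 1 CpG. The strongest in HOXB was an intergenic peak at chr17:46583293-46583547, 22.5 kb beyond HOXB1 (rank 12525), in HOXA one at chr7:27112788-27112987, 29411 bp downstream of the HOXA2 start (rank 27892), and in HOXC one at chr12:54342746-54342882, 5873 bp upstream of HOXC12 (rank 24367). The HOXC peak was called for EVI1 in all 4 lists of the inducible MUTZ3 cells, at ranks 22890 to 39809.

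The sequence under the HOX sites was rich in CpG. Within 100 bp of the summit the median number of CpG dinucleotides was 11 at the 45 CTBP2 sites, against 6 at all CTBP2 sites, and 10.5 at the 50 EVI1 sites, against 5. The GATA-type hexamer AGATAA, which the first zinc fingers of EVI1 also read, was found on either strand in 6 of 45 CTBP2 sites (13.3%, against 5.75%) and 7 of 50 EVI1 sites (14.0%, against 8.16%). HOXB held 5 of these 7 EVI1 sites and HOXA 0 of 19. In unmodified MUTZ3 the HOX share of AGATAA was not above that of the list. It was found in 2 of 20 EVI1 peaks (10.0%, against 11.8%) and 2 of 18 CTBP2 peaks (11.1%, against 13.4%). AGATGAG, read by the second zinc fingers, was found in 2 of 45 (4.44%, against 4.37%) and 1 of 50 (2.00%, against 5.52%). The E-box CACCTG, of the type bound by ZEB proteins, which also bind CTBP2, was found in 4 of 45 (8.89%, against 25.5%) and 5 of 50 (10.0%, against 20.3%). The GC box GGGCGG was found in 16 of 45 (35.6%, against 26.8%) and 10 of 50 (20.0%, against 24.8%), AGGAAG in 15 of 45 (33.3%, against 42.8%) and 21 of 50 (42.0%, against 43.4%), and TGTGGT in 6 of 45 (13.3%, against 18.0%) and 6 of 50 (against 18.8%). A CTCF core, AGGGGGC or AGGTGGC, was found in 8 of 45 (17.8%, against 16.5%) and 7 of 50 (14.0%, against 15.7%). In MOLM1, CACCTG was found in 2 of 41 HOX peaks (4.88%, against 16.0%) and AGATAA in 5 (12.2%, against 11.7%). A match is a run of letters and not a bound site.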

How the data were processed

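ChIP-seq peak lists of 13 of the 31 samples were analysed, and the other samples were not analysed here. Per the study's methods, the authors aligned reads to hg19 with Bowtie 1.1.1 and called peaks with MACS2 against a matched input at default settings. The submitters' processing notes list MACS2 2.1.2, bcl2fastq 1.8.4 and deepTools 3.5.1. The deposited columns used were position, summit, fold enrichment over input (a ratio) and −log10 p and −log10 q. The deposited display score, which MACS2 writes for the authors at about 10 times the −log10 q, was not used. No read counts are given, so depth is unknown. For MOLM1 and 4x PLASS CTBP2 the labels and the study's sample table differ in the crosslink.

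Genes and start sites came from GENCODE release 44 lifted to GRCh37, the build of the files. Peaks overlapping an interval by 1 bp were counted (Python 3.11.15, pandas 2.3.3, pysam 0.24.0). Sites are merged peaks called in both untreated libraries. Overlap counts equalled those of bedtools 2.31.1 (19748 of 62232 peaks in the pair tried), and simulated lists with known shares were recovered. Groups of 2 libraries were compared by exact permutation (scipy 1.17.1), and shares carry exact 95% binomial intervals. Motifs were searched on both strands 100 bp either side of each summit. Named genes and sites followed a written rule: in each cluster the genes nearest the strongest peaks, those with start peaks in most or no lists, the 3 strongest CTBP2 sites, the strongest lost site, sites gained with dox and the strongest MOLM1 peak absent from MUTZ3. Not every gene or site that met this rule is described. CTBP2 sites called in both untreated libraries were ordered by fold enrichment in untreated replicate 1. The EVI1 site near HOXA5, the rank of the distal HOXB site among other sites and single starts with dox were described after their values were seen. The members and lists were chosen with earlier results of these data known. Alternatives were stricter thresholds on q (−log10 q of 5) and fold (5), other intervals, overlaps (50% of the shorter, summits within 200 bp), start windows (5 kb) and list sizes, and each library left out. Same-numbered libraries are not said to share a culture. Over sites called in all 4 libraries of a target, deviations from the group mean of log2 fold enrichment correlated at 0.21 for CTBP2 (14297 sites) and −0.23 for EVI1 (31593 sites) between same-numbered libraries. Of the HOX genes and their cofactors, 2 genes are not reported here.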

Additional observations from a re-analysis of the deposited data

How the results depend on the processing

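Of 82 alternative values, 50 were classed as unchanged, 28 moved and 4 turned. Log2 ratios were judged by their sign, and shares kept and rank percentiles by the SD of the main value. Overlap shares were judged by the binomial interval of the main value, and start counts by a fixed fold range around it. The CTBP2 log2 ratio of peak numbers kept its sign in every alternative, between −2.52 (fold enrichment of 5 or more) and −0.28 (lists cut to the smallest), and between −1.87 and −1.40 with 1 library left out. The EVI1 log2 ratio turned to 0.042 with −log10 q of 5 or more, 0.12 with lists cut to the smallest and 0.17 per 10000 peaks (added after the data were seen), and with 1 library left out it ranged from −0.24 to 0.044, the last without untreated replicate 2. CTBP2 sites kept moved to 32.4% with −log10 q of 5 or more, 26.0% with fold enrichment of 5 or more, 41.9% without flanks, 38.9% with summits within 200 bp, 67.5% with lists cut to the smallest and 23.6% for sites of either untreated library, and ranged from 26.2% (without untreated replicate 2) to 51.1% with 1 library left out. EVI1 sites kept moved to 93.4%, 82.8%, 73.0% with summits within 200 bp, 97.4% with lists cut to the smallest and 61.8% for either library, the first 2 being the thresholds on q and fold, and ranged from 64.6% (without untreated replicate 1) to 90.0%. HOX starts with CTBP2 numbered 20 within 5 kb, 16 in either library and 5 with lists cut to the smallest, and 9 to 16 with 1 library left out, the higher number without untreated replicate 2. Starts with EVI1 numbered 7 with fold enrichment of 5 or more and 21 within 5 kb, and 12 to 17 with 1 library left out. EVI1 peaks with a CTBP2 peak moved to 85.0% with the inducible CTBP2 sites. MOLM1 peaks with a MUTZ3 site moved to 40.0% with fold enrichment of 5 or more, 41.5% with summits within 200 bp and 17.1% with the unmodified MUTZ3 list. The cause of these shifts was not tested. The median percentile of the strongest peak in each cluster moved by less than its spread when ranked by −log10 p.

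With the replicate block, each dox library set against the untreated library of the same number, the log2 ratios were −1.63 for CTBP2 and −0.10 for EVI1, and 30.4% of CTBP2 and 71.3% of EVI1 peaks were kept, since peaks of 1 library then stand in place of sites called in both. Crossing the EVI1 numbers (added after the data were seen) gave −0.10 and 73.3%. With 2 libraries per group no permutation p can go below 0.333, and with depth unknown the absence of a peak cannot be told from a shallow library.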
